A study of Rattus norvegicus with 132 samples.

Results

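The levels of 10 genes of bone morphogenetic protein (BMP) signalling were followed through the intestinal epithelium of irradiated rats: the ligands Bmp2, Bmp4 and Bmp7, the secreted BMP-binding antagonists Bmper and Grem1, the co-receptor Rgmb, the intracellular inhibitor Smad6, and the target genes Id1, Id2 and Id3. They were taken by symbol. All 10 of the 10 listed symbols were found in both deposited count tables, out of 21837 genes, and they were read in all 22 groups. Bmper stood at 52.9 to 101 CPM in non-irradiated colon and at no more than 1.49 CPM in irradiated, untreated colon at day 7. In jejunum, where Bmper and Grem1 were at or near 0, Bmp2 rose at day 4 and Smad6 fell at both days.

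BMP ligands bind type I and type II serine/threonine kinase receptors, which phosphorylate SMAD proteins that enter the nucleus and switch on targets such as the Id genes and Smad6, the latter a feedback inhibitor of the pathway. Along the crypt axis of the intestine BMP activity is known to be high towards the differentiated cells and low at the crypt base, where antagonists such as gremlin 1, secreted by stromal cells, hold it down. Most intestinal BMP ligand and antagonist transcripts are known from stromal cells.

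The 132 RNA libraries, 6 in each of 22 groups, were made from epithelium of the colon or the jejunum of Sprague Dawley rats. Non-irradiated rats received no treatment, and every other group shares the same abdominal irradiation, given in 5 fractions of 4 Gy over day 0 to day 4. The irradiated rats were left untreated, or given oral vehicle (water), or given compound Kushen powder by mouth (a herbal medicine, named as a pill in part of the descriptions), given injected vehicle (intraperitoneal 0.25% Tween-80 in 25 mM HEPES), or given compound Kushen injection by the intraperitoneal route, and each arm was sampled at day 4 and day 7 in both tissues. The labels give no age and no rat numbers, so it is not known whether a colon and a jejunum library come from the same rat, and p-values measure the spread between libraries.

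Levels are CPM, counts scaled to a common library size, with TMM scaling factors over all 132 libraries. They compare 1 gene between groups, never genes with each other, since transcript lengths are not in the tables. Bmper, Bmp4 and Id1 each overlap an uncharacterised non-coding locus in RefSeq (GRCr8), and the strand setting of the counting is not given, so reads of the pair cannot be told apart. Changes are log2 changes with their standard error (SE) from the edgeR quasi-likelihood test, and a change is called at a p under 0.05 after Benjamini-Hochberg adjustment across every gene of the fit. Every adjusted p of a change comes from that edgeR test. Total counts per library lay between 17196039 and 19800746. The first digit of the library names was read as 3 library series, and the labels do not say what it marks. Replicates 1 to 3 are of series 1 and replicates 4 to 6 of series 2 in all groups except the injected ones. These are wholly of series 3 and were set only against one another. The mitochondrial share of counts moved with irradiation in colon, from 10.4% to 14.2% in non-irradiated libraries to 3.24% to 4.82% at day 7 in untreated rats. All 7 epithelial markers (Epcam, Cdh1, Krt8, Krt18, Krt20, Vil1, Cdx2) passed the filter on low counts in colon, and of the colon markers Hoxb13 was at or near 0 throughout. In bulk RNA fewer cells of a type and less RNA per cell cannot be told apart.

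Bases before the gene are shown for Bmper and the 3 Id genes. They were picked because their levels ran in opposite directions between colon libraries at day 4, as described below. Each run is taken from RefSeq's promoter entry, 250 bases before a transcript start, 5′ to 3′ on the gene's strand, in the rat build GRCr8, which is not the build of the counts. Of the 10 genes 7 had an entry. The entries of Bmper, Id1 and Id3 begin at a transcript start inside the gene's annotated span, so only the bases before that span are printed, 133, 211 and 212 of them, and 250 for Id2. Capitals mark the GC-rich motifs GGCGCC and GGAGCC (or its reverse complement GGCTCC), types of sequence that SMAD proteins are known to bind.
Bmper, chr8:30007916-30008048, plus strand: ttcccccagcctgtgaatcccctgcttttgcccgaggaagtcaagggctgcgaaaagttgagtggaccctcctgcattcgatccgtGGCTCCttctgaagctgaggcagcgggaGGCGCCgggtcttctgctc
Id1, chr3:161671314-161671524, plus strand: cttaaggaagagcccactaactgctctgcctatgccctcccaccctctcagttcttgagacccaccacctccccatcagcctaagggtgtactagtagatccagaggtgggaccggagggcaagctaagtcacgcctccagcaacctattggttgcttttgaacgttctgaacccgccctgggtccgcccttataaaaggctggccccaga
Id2, chr6:47470996-47471245, minus strand: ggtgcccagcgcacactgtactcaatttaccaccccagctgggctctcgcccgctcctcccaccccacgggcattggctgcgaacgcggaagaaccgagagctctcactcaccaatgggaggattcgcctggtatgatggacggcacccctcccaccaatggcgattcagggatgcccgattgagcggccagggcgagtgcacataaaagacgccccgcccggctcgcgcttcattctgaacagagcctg
Id3, chr5:153656041-153656252, plus strand: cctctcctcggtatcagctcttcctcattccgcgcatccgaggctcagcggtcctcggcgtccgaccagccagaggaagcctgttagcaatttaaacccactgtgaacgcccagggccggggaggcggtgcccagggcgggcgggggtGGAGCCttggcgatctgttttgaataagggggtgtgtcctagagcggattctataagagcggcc
Counted from the gene's span, the Bmper window holds GGCGCC at -19 and GGCTCC at -47, Id3 holds GGAGCC at -64, and neither motif is in the Id1 and Id2 windows. Rgmb and Grem1 also had bases before the gene, 250 each, which are not printed. The Grem1 window holds GGCGCC at -91, and the Rgmb window holds neither motif. For comparison, windows were cut next to the transcript start in 33469 RefSeq entries. At 133 bases 5.81% hold GGCGCC and 14.3% hold GGAGCC on either strand. At 212 bases 20.4% hold GGAGCC, and at 250 bases 8.69% hold GGCGCC. The Bmper and Id3 windows instead end 117 and 38 bases before the transcript start of their entries. Their GC content, 60.9% and 62.3%, is above the medians of 53.4% and 51.9% at their lengths. The shares are thus only a rough guide. The shorter SMAD motif GTCT (or AGAC), which 60.8% of windows of 133 bases and 84% of those of 250 bases hold, is at -11 in Bmper, -154 in Id1 and -42 in Id2, and not in the Id3 window. A match is a description of these letters and not a binding site.

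Before irradiation the tissues differed most in Bmper, a secreted protein that binds BMPs outside the cell and can dampen or help their signalling. Non-irradiated colon held 52.9 to 101 CPM (median 73.0), while in non-irradiated jejunum 4 of 6 libraries were at 0 and the highest was at 0.0742 CPM. Summed over the groups these were 9067 counts against 2, a ratio of 2777 with an exact 95% counting interval of 769 to 22936, which covers counting error only. Grem1 was low in both, with 10 counts over the 6 colon libraries and 0 over the 6 jejunum libraries. Of the 10 genes 7 were called between the tissues, where 70.5% of all genes tested were called and the median log2 difference of all genes was -0.22. Bmp2, a ligand, was higher in jejunum, at 8.70 to 19.9 CPM (median 14.3) against 1.24 to 3.56 CPM (median 2.28) in colon (log2 change 2.79, SE 0.60, adjusted p = 3.79e-05). Id3, a transcriptional regulator that BMP signals induce, was also higher in jejunum, at 49.4 to 164 CPM (median 82.3) against 11.1 to 16.9 CPM (median 13.8) (log2 change 2.7, SE 0.33, adjusted p = 4.3e-11). The jejunum libraries parted by series for Id3, with 49.4 to 60.2 CPM in series 1 and 104 to 164 CPM in series 2. Bmp7, a ligand known for epithelial expression, was lower in jejunum, at 2.13 to 3.55 CPM (median 3.40) against 13.4 to 20.2 CPM (median 18.1) (log2 change -2.82, SE 0.39, adjusted p = 2.58e-09). Rgmb, a membrane-anchored BMP co-receptor, was lower too (log2 change -1.59, SE 0.17, adjusted p = 1.74e-13), as were Smad6 (log2 change -1.04, SE 0.34, adjusted p = 0.00533) and Id1 (log2 change -0.45, SE 0.18, adjusted p = 0.0251). For Bmper, Bmp2, Bmp7, Id3, Rgmb and Smad6 the 6 jejunum and 6 colon libraries did not overlap, as was so for 53.9% of all genes tested, and Id1 overlapped. Bmp4 (difference -0.54 (SE 0.88)) and Id2 (difference 0.51 (SE 0.28)) were not called.

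In colon, irradiation without treatment went with a near loss of Bmper by day 7 and a rise of Bmp2 and Bmp4. At day 4, 4 of the 10 genes were called (Bmp4 and Grem1 higher, Rgmb and Smad6 lower), where 46.9% of all genes tested were called. By day 7 it was 7 of 10 (Bmp2, Bmp4 and Id3 higher, Bmper, Bmp7, Rgmb and Smad6 lower), where 63.6% of all genes were called. The median log2 change of the 10 genes was -0.46 at day 4 and -0.12 at day 7, against 0.02 and 0.02 over all genes tested. Both comparisons share the 6 non-irradiated libraries. The shares called among the 10 genes are near those of all genes, so the counts are no result about BMP genes as a class and the single genes are described.

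**Figure D1:**
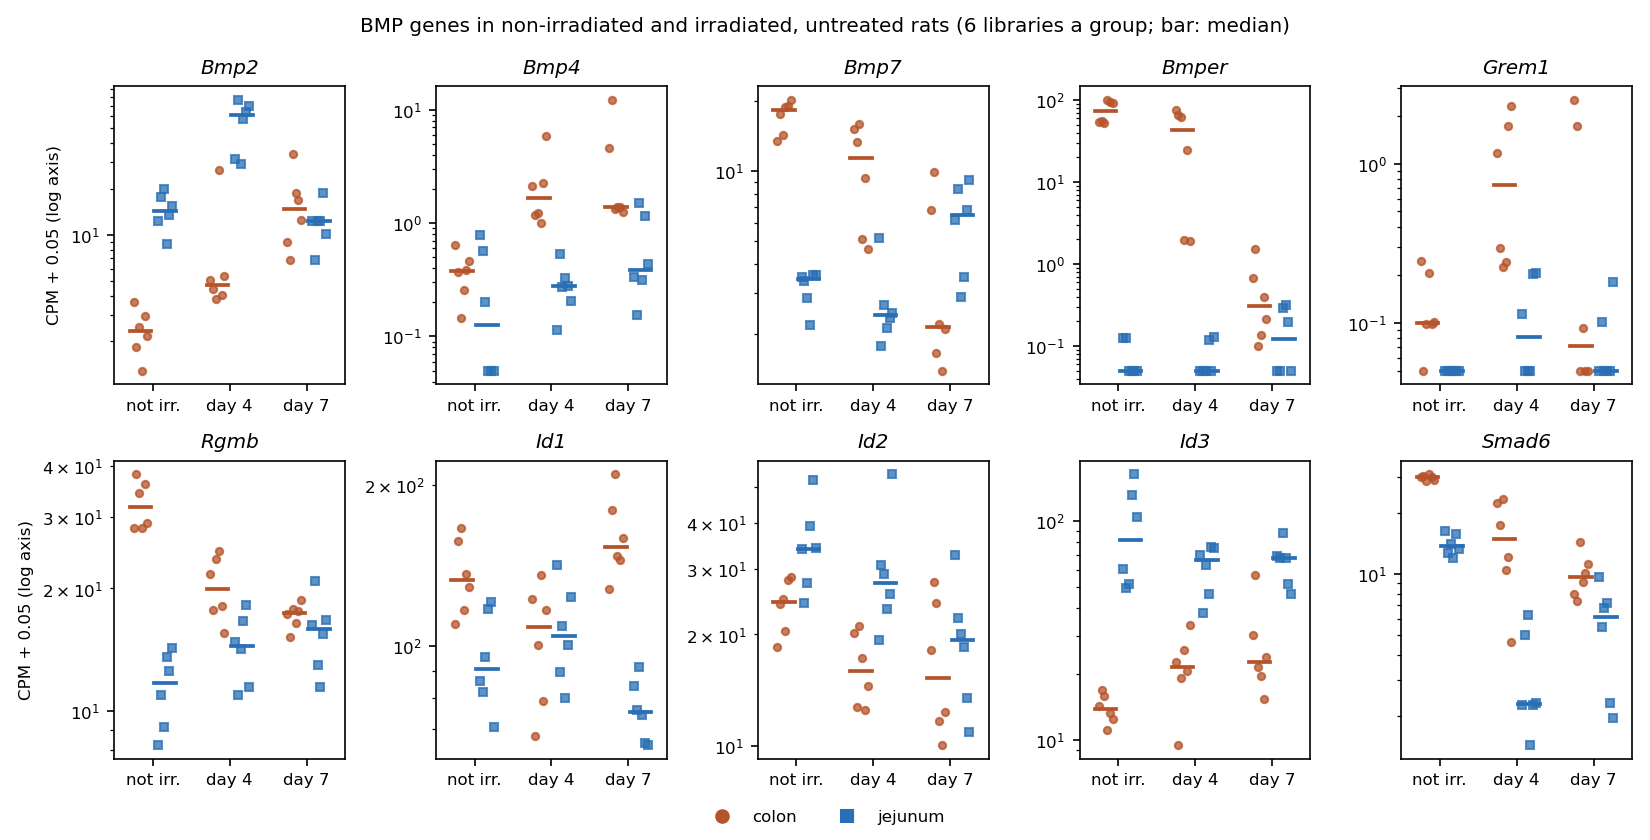
Levels of the 10 genes in non-irradiated and irradiated, untreated rats, as CPM + 0.05 on log axes; each point is a library, circles are colon, squares are jejunum, and bars are medians of 6 libraries. Bmper in colon goes from a median of 73.0 CPM to 0.256 CPM at day 7, and Bmp2 in jejunum peaks at day 4 with a median of 60.4 CPM.

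Bmper, first among the antagonists, was spread widely at day 4. The 6 untreated colon libraries held 74.7, 64.9, 62.1, 1.90, 24.6 and 1.84 CPM from replicate 1 to 6, against 52.9 to 101 CPM in non-irradiated colon. The non-irradiated libraries parted by series, with 52.9 to 55.1 CPM in series 1 and 90.8 to 101 CPM in series 2. The first 3 of the day 4 libraries, all of series 1, lay above the non-irradiated libraries of series 1. The last 3, all of series 2, lay below every non-irradiated library. The change at day 4 was not called (log2 change -1.60, SE 0.74, adjusted p = 0.0719). In series 1 alone it was 0.34 and in the fit with the mitochondrial share as a covariate 0.17. At day 7 all 6 libraries lay at 0.0490 to 1.49 CPM (median 0.256), with no overlap with the non-irradiated group, as was so for 41.6% of all genes tested (log2 change -7.71, SE 0.98, adjusted p = 3.46e-08). Without each of the 12 libraries in turn the Bmper call at day 7 held. Grem1, the stromal antagonist gremlin 1, was at 0 to 0.195 CPM in non-irradiated colon and at 0.174 to 2.25 CPM (median 0.681) at day 4 (log2 change 3.41, SE 1.40, adjusted p = 0.0431). That call was lost in 8 of the 12 fits that left out 1 library, with adjusted p from 0.0354 to 0.0988 over the 12. At day 7 Grem1 was at 0 in 3 of 6 libraries, at 0.0430 CPM in another, and at 1.68 and 2.48 CPM in the remaining ones (log2 change 3.15, SE 1.43, adjusted p = 0.0525).

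Among the ligands Bmp4, known from the intestinal mesenchyme, rose at both days. It was at 0.0956 to 0.585 CPM in non-irradiated colon, 0.95 to 5.80 CPM (median 1.61) at day 4 (log2 change 2.74, SE 0.74, adjusted p = 0.00285) and 1.19 to 12.2 CPM (median 1.34) at day 7 (log2 change 3.52, SE 0.75, adjusted p = 0.000123). No irradiated library overlapped the non-irradiated group at either day, as was so for 26.8% of all genes at day 4 and 41.6% at day 7. Bmp2 was at 1.24 to 3.56 CPM in non-irradiated colon and at 3.74 to 26.6 CPM (median 4.67) at day 4, where no library overlapped but the change was not called (log2 change 1.60, SE 0.69, adjusted p = 0.0532). A single day 4 library, replicate 4, stood at 26.6 CPM. At day 7 Bmp2 rose to 6.78 to 33.6 CPM (median 14.7) (log2 change 2.76, SE 0.70, adjusted p = 0.000860). Bmp7 was at 13.4 to 20.2 CPM in non-irradiated colon and 4.59 to 15.8 CPM at day 4 (log2 change -0.82, SE 0.39, adjusted p = 0.0808). It fell to 1.35 to 9.87 CPM (median 2.11) at day 7 (log2 change -2.26, SE 0.41, adjusted p = 1.23e-05). Thus the 3 ligands did not move together: Bmp2 and Bmp4 ended higher and Bmp7 lower.

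The co-receptor Rgmb fell at both days, from 28.1 to 38.1 CPM (median 31.6) to 15.5 to 24.7 CPM (median 19.8) at day 4 (log2 change -0.66, SE 0.14, adjusted p = 0.000282) and 15.2 to 18.7 CPM (median 17.4) at day 7 (log2 change -0.93, SE 0.14, adjusted p = 8.81e-07), with no overlap at either. Smad6 was at 28.5 to 30.9 CPM in non-irradiated colon, and fell to 4.59 to 23.3 CPM (median 14.7) (log2 change -1.02, SE 0.28, adjusted p = 0.00298) and 7.30 to 14.3 CPM (median 9.58) (log2 change -1.59, SE 0.28, adjusted p = 7.62e-06). Every irradiated library lay below every non-irradiated one for Smad6 at both days. Such non-overlap, in either direction, was found for 26.8% of all genes tested at day 4 and 41.6% at day 7. Among the targets Id3 was at 11.1 to 16.9 CPM in non-irradiated colon, 9.42 to 33.4 CPM at day 4 (log2 change 0.63, SE 0.33, adjusted p = 0.113) and 15.3 to 56.8 CPM (median 22.7) at day 7, when it was called higher (log2 change 1.01, SE 0.33, adjusted p = 0.00842). The Id3 call rests on replicate 2 of day 7, at 56.8 CPM: without it the adjusted p was 0.0800. Id1 (-0.38 (SE 0.19) at day 4, 0.24 (SE 0.19) at day 7, as log2 changes) and Id2 (-0.54 (SE 0.26) and -0.48 (SE 0.26)) were not called, and their groups overlapped. Smad6 and the Id genes are all known targets of the pathway. Of them Smad6 was called lower at both days and Id3 higher at day 7 only. Differences between these genes were not tested.

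Markers of fibroblasts moved with these colon results. The sum of 7 smooth muscle markers had medians of 18.1 CPM in non-irradiated colon, 29.7 CPM at day 4 and 12.6 CPM at day 7. It was thus not higher at day 7. Of the 9 fibroblast markers (Col1a1, Col1a2, Col3a1, Pdgfra, Dcn, Lum, Postn, Fn1, Col6a3) all 9 passed the filter and all 9 rose at both days; none of them was at 0 in all libraries of these groups. Their summed level was 9.20 to 16.1 CPM in non-irradiated colon, 35.1 to 114 CPM at day 4 and 18.3 to 297 CPM at day 7. At day 7 the sum was 189 and 297 CPM in replicates 1 and 2 and 18.3 to 34.9 CPM in the other 4. The same replicates 1 and 2 held the highest Bmp4 (4.56 and 12.2 CPM), Grem1 (2.48 and 1.68 CPM), Bmp7 (6.76 and 9.87 CPM), Id2 (18.2 and 27.7 CPM, beside 24.3 CPM in replicate 3) and Id3 (30.3 and 56.8 CPM). Without these replicates, an alternative chosen after seeing the data, 7 of the 10 genes were called at day 7. Bmp4 was then 1.84 (adjusted p = 0.0229), Id3 0.43 (adjusted p = 0.260), Id2 -0.73 (adjusted p = 0.0288) and Grem1 -2.7 (adjusted p = 0.329) as log2 changes, and Bmper -8.73 (adjusted p = 1.10e-06). Without replicate 2 alone Bmp4 was 2.58 and Bmper -8.35, and without replicate 3 alone Bmp2 was 2.16; these calls held. The summed colon markers fell from 17108 to 21285 CPM in non-irradiated colon to 378 to 5197 CPM at day 7, and the 4 cycling markers rose from a sum of 63.4 to 160 CPM to 388 to 630 CPM. With the mitochondrial share as a covariate, 2 of the 10 genes were called at day 4 (Rgmb and Id1, both lower) and 1 at day 7 (Rgmb). Of all genes 2847 were then called at day 4 in place of 6242, and 272 at day 7 in place of 8469. The share runs close to the groups in colon. The part of cell makeup in these results was not tested beyond these values, and no measure of RNA quality was read.

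In jejunum Bmp2 rose early and Smad6 fell, while Bmper and Grem1 stayed at the floor of detection. Bmper and Grem1 failed the low-count filter there, and the other 8 genes passed. At day 4, 3 of the 8 were called, where 44% of all genes tested were called, and at day 7, 4 of 8, where 58.8% were. The median log2 change of the 8 was -0.19 at day 4 and -0.32 at day 7, against 0.05 and 0.02 over all genes. Bmp2 went from 8.70 to 19.9 CPM (median 14.3) in non-irradiated jejunum to 29.1 to 76.8 CPM (median 60.4) at day 4 with no overlap, as was so for 9.89% of all genes (log2 change 1.88, SE 0.37, adjusted p = 0.000135). It was at 6.74 to 18.8 CPM (median 12.2) at day 7 (log2 change -0.31, SE 0.36, adjusted p = 0.469). Bmp7 was at 2.13 to 3.55 CPM before irradiation and 1.74 to 5.12 CPM at day 4 (log2 change -0.20, SE 0.29, adjusted p = 0.594). It rose to 2.84 to 9.11 CPM (median 6.43) at day 7 (log2 change 0.97, SE 0.28, adjusted p = 0.00350), where the groups overlapped. Bmp4 stayed low, with 0 to 0.737 CPM in non-irradiated jejunum and 0.103 to 1.45 CPM at day 7 (log2 change 1.18, SE 0.80, adjusted p = 0.20).

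Smad6 fell in jejunum from 11.9 to 16.1 CPM (median 13.7) to 1.38 to 6.23 CPM (median 2.24) at day 4 (log2 change -2.20, SE 0.36, adjusted p = 1.46e-05) and 1.90 to 9.62 CPM (median 6.08) at day 7 (log2 change -1.42, SE 0.35, adjusted p = 0.000863). At both days all 6 irradiated libraries lay below all 6 non-irradiated ones. Non-overlap in either direction was found for 9.89% of all genes at day 4 and 26.5% at day 7. The Smad6 changes were called with the mitochondrial share as a covariate as well. Rgmb rose slightly at day 7, from 8.18 to 14.3 CPM (median 11.7) to 11.4 to 20.8 CPM (median 15.8) (log2 change 0.46, SE 0.16, adjusted p = 0.0147), a call lost without replicate 2 of day 7 (adjusted p = 0.0677). Id2, an Id factor also known from immune cells, was at 24.3 to 52.1 CPM (median 34.1) before irradiation and 19.3 to 54.1 CPM at day 4 (log2 change -0.20, SE 0.25, adjusted p = 0.534). It fell to 10.8 to 32.7 CPM (median 19.3) at day 7 (log2 change -0.86, SE 0.26, adjusted p = 0.00463). The summed immune markers were at 3.98 to 44.3 CPM before irradiation, 2.7 to 8.71 CPM at day 4 and 1.34 to 5.55 CPM at day 7, and 4 of the 5 passed the filter and were called lower at both days. None of the 5 was at 0 in all libraries of a group, and their part in the Id2 change was not tested. Id3 was called lower at day 4 (log2 change -0.58, SE 0.24, adjusted p = 0.0478), but that call was lost in 6 of 12 fits that left out 1 library, and in series 1 alone the change was 0.08. Id1 was not called at either day (0.17 (SE 0.15) and -0.34 (SE 0.15)). The fibroblast markers had 0 of 9 called at day 4 and 4 of 9 at day 7, with sums of 0.693 to 18.9 CPM in non-irradiated jejunum, 3.05 to 10.4 CPM at day 4 and 5.15 to 41.5 CPM at day 7. The mitochondrial share was 5.82% to 20.9%, 7.19% to 23.5% and 3.66% to 8.70% in the same order.

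The irradiation effect itself was compared between the tissues by interaction contrasts, given as the change in jejunum minus the change in colon. Bmper and Grem1 entered the fit over both tissues, where Bmper was called at day 7 (adjusted p = 0.000503), but with jejunum at or near 0 counts the size of their contrasts depends on the prior count, and they are left out of the counts here. At day 4, 2 of the 8 other genes differed, where 21.8% of all genes did: Rgmb (log2 change 1.04, SE 0.21, adjusted p = 0.000226) and Id3 (log2 change -1.17, SE 0.41, adjusted p = 0.0318). With the library number shared by a colon and a jejunum library as a block, Id3 was not called at day 4 (log2 difference -1.02, adjusted p = 0.0817) and Smad6 was (log2 difference -1.11, adjusted p = 0.0498). The labels do not say whether such libraries share a rat. At day 7, 4 of the 8 differed, where 39.6% of all genes did. Bmp7 fell in colon and rose in jejunum (log2 change 3.33, SE 0.50, adjusted p = 2.7e-07). Bmp2 was higher in colon but not in jejunum at day 7 (log2 change -2.99, SE 0.78, adjusted p = 0.00173), after its rise in jejunum at day 4. Rgmb fell in colon and rose in jejunum (log2 change 1.47, SE 0.21, adjusted p = 1.25e-07), and Id3 differed in the other sense (log2 change -1.43, SE 0.41, adjusted p = 0.00427). For Smad6, lower in both tissues, the difference was -1.15 (SE 0.45) at day 4 and 0.25 (SE 0.44) at day 7, and neither was called (adjusted p = 0.0563 and 0.686). The median interaction over all genes tested was 0.11 at day 4 and 0.18 at day 7.

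Day 7 was set against day 4 in each of the 5 irradiated arms, which share no libraries. In colon Bmper fell in all 5 arms. In untreated rats it went from 1.84 to 74.7 CPM to 0.0490 to 1.49 CPM (log2 change -6.11, SE 0.94, adjusted p = 7.34e-06). There 3 of 10 genes and 36.5% of all genes were called. With oral vehicle it went from 0.837 to 65.1 CPM to 0.0877 to 1.86 CPM (log2 change -4.28, SE 0.88, adjusted p = 0.000501). There 3 of 10 genes and 27.4% of all genes were called. With powder it went from 5.19 to 81.5 CPM to 0.110 to 1.29 CPM (log2 change -6.25, SE 0.92, adjusted p = 2.21e-06). There 6 of 10 genes and 49.3% of all genes were called. In these arms the groups of untreated rats and of powder did not overlap, as was so for 10.6% and 14.8% of all genes, and those of oral vehicle did, since a day 4 library stood at 0.837 CPM; without replicate 6 of day 7 the oral vehicle change was -4.99. With injected vehicle Bmper went from 1.31 to 53.3 CPM to 0.0481 to 6.70 CPM (log2 change -2.59, SE 0.96, adjusted p = 0.0470), the only 1 of the 10 genes called there, with 27.4% of all genes called. That call was lost in 7 of 12 fits that left out 1 library, with a log2 change between -3.15 and -1.59, the latter without replicate 5 of day 4 at 53.3 CPM. With injection it went from 1.46 to 61.2 CPM to 0.627 to 4.27 CPM (log2 change -3.68, SE 1.00, adjusted p = 0.00573). There 3 of 10 genes and 40.8% of all genes were called, and the 2 days overlapped in both injected arms.

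Of the other antagonist and the ligands in colon, Bmp7 fell from day 4 to day 7 in untreated rats (log2 change -1.45, SE 0.40, adjusted p = 0.00422), with oral vehicle (log2 change -1.08, SE 0.40, adjusted p = 0.0397) and with powder (log2 change -1.70, SE 0.40, adjusted p = 0.000710). With injected vehicle and injection the log2 changes were -0.52 (SE 0.45) and -1.01 (SE 0.46), not called. The Bmp7 call with oral vehicle was lost in 6 of 12 fits that left out 1 library. Bmp4 was called only with powder (log2 change 1.58, SE 0.66, adjusted p = 0.0441), and that call was lost in 7 of 12 such fits, down to 0.95 without replicate 5 of day 7. Bmp2 was called lower with injection (log2 change -2.57, SE 0.83, adjusted p = 0.0165), but 1 day 4 library, replicate 2, stood at 101 CPM where the other 5 lay at 2.85 to 11.3 CPM. Without it the log2 change was -0.64 (adjusted p = 0.415). Grem1 was not called in any arm. With injection it was at 0 to 2.48 CPM (median 0.127) at day 4 and 0.274 to 13.7 CPM (median 3.65) at day 7 (log2 change 3.20, SE 1.34, adjusted p = 0.0597).

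The intracellular genes in colon followed by arm. Smad6 fell with oral vehicle (log2 change -0.88, SE 0.28, adjusted p = 0.0164), powder (log2 change -1.11, SE 0.28, adjusted p = 0.00135) and injection (log2 change -0.89, SE 0.32, adjusted p = 0.0300), and was at -0.58 (SE 0.28) in untreated rats and -0.47 (SE 0.32) with injected vehicle, not called. The call with oral vehicle was lost without replicate 2 of day 4 (adjusted p = 0.0678), and that with injection in 5 of 12 fits that left out 1 library. Id1 rose in untreated rats, from 68.1 to 136 CPM to 128 to 209 CPM (log2 change 0.62, SE 0.19, adjusted p = 0.00921), and with powder, from 86.1 to 189 CPM to 138 to 253 CPM (log2 change 0.72, SE 0.19, adjusted p = 0.00197), and was not called in the other 3 arms. Rgmb fell with powder (log2 change -0.65, SE 0.14, adjusted p = 0.000346) and was not called elsewhere. Id2 and Id3 were not called in any colon arm. In every colon arm all 4 cycling markers rose from day 4 to day 7, and the summed colon markers had a lower median at day 7. With the mitochondrial share as a covariate none of the 10 genes was called in colon with untreated, oral vehicle, powder or injected vehicle rats and 1 with injection. Of all genes 575, 569, 484, 1154 and 3547 were called in that order, fewer in each arm than without the covariate.

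**Figure D2:**
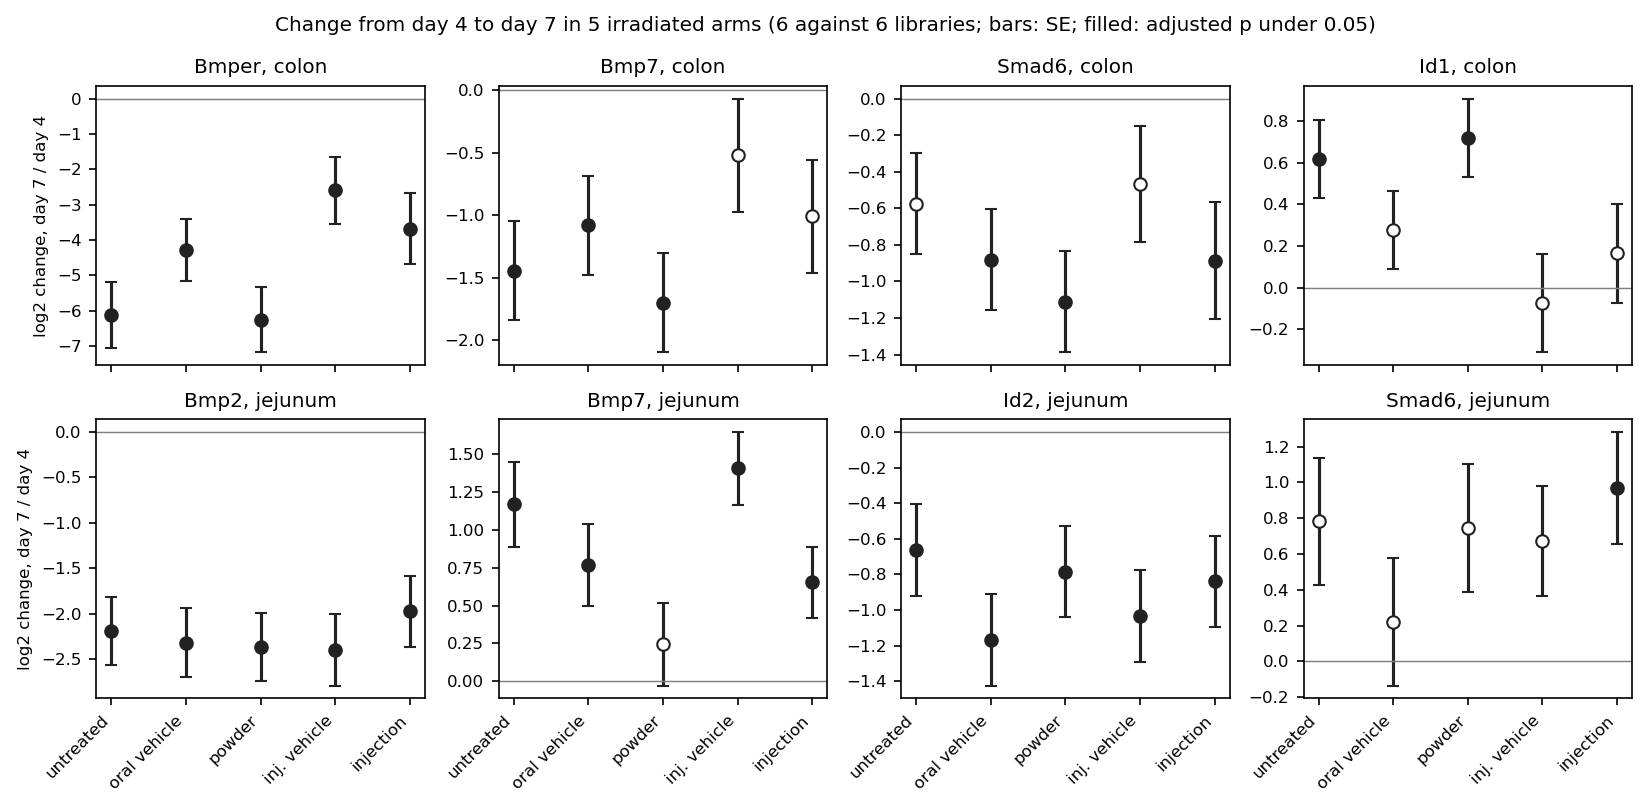
Log2 change from day 4 to day 7 in each of the 5 irradiated arms for 4 genes in colon (top) and 4 in jejunum (bottom); points are edgeR estimates from 6 against 6 libraries, bars are SE, and filled points have an adjusted p under 0.05. Bmper in colon and Bmp2 and Id2 in jejunum are filled and below 0 in all 5 arms.

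In jejunum the same comparison of days gave a fall of Bmp2 and of Id2 in all 5 arms. Bmp2 went from 29.1 to 76.8 CPM (median 60.4) to 6.74 to 18.8 CPM (median 12.2) in untreated rats (log2 change -2.19, SE 0.37, adjusted p = 3.35e-05), and the groups did not overlap, as was so for 8.02% of all genes. With oral vehicle it went from 6.29 to 109 CPM to 4.66 to 15.8 CPM (log2 change -2.32, SE 0.38, adjusted p = 5.36e-05), and with powder from 31.5 to 56.3 CPM to 7.40 to 12.6 CPM (log2 change -2.36, SE 0.37, adjusted p = 1.23e-05). With injected vehicle it went from 12.2 to 95.1 CPM to 7.52 to 16.0 CPM (log2 change -2.39, SE 0.40, adjusted p = 0.000138), and with injection from 12.8 to 63.1 CPM to 7.35 to 13.4 CPM (log2 change -1.97, SE 0.39, adjusted p = 0.000732). The log2 changes of the 5 arms lay between -2.39 and -1.97, and differences between arms in this change were not tested except between each preparation and its vehicle. Genes called in all were 4 of 8 beside 41% of all genes in untreated rats, 4 of 8 beside 25.7% with oral vehicle, 2 of 8 beside 36.9% with powder, 5 of 8 beside 50.6% with injected vehicle and 4 of 8 beside 41% with injection.

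Id2 fell by 0.66 on the log2 scale in untreated jejunum (adjusted p = 0.0367), by 1.17 with oral vehicle (adjusted p = 0.00151), by 0.78 with powder (adjusted p = 0.0164), by 1.03 with injected vehicle (adjusted p = 0.00245) and by 0.84 with injection (adjusted p = 0.0130). The call in untreated rats was lost in 6 of 12 fits that left out 1 library. Bmp7 rose in 4 of the 5 arms: in untreated rats (log2 change 1.17, SE 0.28, adjusted p = 0.00141), with oral vehicle (log2 change 0.77, SE 0.27, adjusted p = 0.0359), with injected vehicle (log2 change 1.41, SE 0.24, adjusted p = 0.000175) and with injection (log2 change 0.65, SE 0.23, adjusted p = 0.0299). With powder the Bmp7 log2 change was 0.24 (SE 0.27), not called. The Bmp7 call was lost in 9 of 12 such fits with oral vehicle and in 5 of 12 with injection. Smad6 rose with injection, from 1.31 to 2.73 CPM to 2.79 to 6.15 CPM without overlap, as was so for 17.8% of all genes (log2 change 0.97, SE 0.31, adjusted p = 0.0178), and had changes of 0.22 to 0.78 in the other 4 arms, not called. Id1 fell in untreated rats (log2 change -0.50, SE 0.15, adjusted p = 0.00812) and with injected vehicle (log2 change -0.57, SE 0.16, adjusted p = 0.00644). Bmp4 rose with oral vehicle (log2 change 2.19, SE 0.81, adjusted p = 0.0430), a call lost in 7 of 12 such fits and at 1.21 without replicate 5 of day 7, at 2.52 CPM. Rgmb rose with injected vehicle (log2 change 0.40, SE 0.14, adjusted p = 0.0247), a call lost without replicate 2 or replicate 4 of day 7. Id3 was not called in any jejunum arm.

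Markers and the mitochondrial share moved with the day in jejunum as well. The median mitochondrial share went from 11.5% to 4.82% in untreated rats, 8.59% to 5.00% with oral vehicle, 9.18% to 5.12% with powder, 15.3% to 6.33% with injected vehicle and 19.9% to 6.34% with injection. The summed jejunum markers (6 of 7 in the tables) had a median of 59689 CPM at day 4 and 26041 CPM at day 7 in untreated rats, and a lower median at day 7 in the other 4 arms too. The median sum of the 4 cycling markers went from 74.9 to 246 CPM in untreated rats and was higher at day 7 in all 5 arms. The median sum of the 5 immune markers (Ptprc, Cd3e, Cd79a, Csf1r, Itgam) went from 3.88 to 2.35 CPM in untreated rats and was lower at day 7 in all 5 arms. With the mitochondrial share as a covariate Bmp2 was called in 4 arms and was -1.52 with injection (adjusted p = 0.0746). Id2 was called in 3 arms with that covariate, and was -0.60 in untreated rats (adjusted p = 0.0812) and -0.87 with injection (adjusted p = 0.131). The part of cell makeup in these changes was not tested.

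Whether either preparation changed these genes was asked against its own vehicle. In no comparison of powder or injection with vehicle was any of the genes called in the main fits, in either tissue on either day. With powder in colon at day 4, 11.8% of all genes were called and 0 of the 10, and in edgeR 4 of the 10 had an unadjusted p under 0.05. Rgmb was at 21.6 to 31.9 CPM (median 25.8) with powder and 12.2 to 23.9 CPM (median 22.0) with vehicle (difference 0.35 (SE 0.14), adjusted p = 0.0966). Smad6 was at 16.9 to 24.8 CPM (median 21.4) with powder and 6.32 to 23.2 CPM (median 13.2) with vehicle (difference 0.62 (SE 0.27), adjusted p = 0.129). Without replicate 2 of the vehicle group Smad6 was called higher (log2 difference 0.80, adjusted p = 0.0435), the only call among these genes in any of the fits that left out 1 library from a preparation and vehicle comparison. Bmper was at 5.19 to 81.5 CPM (median 57.1) with powder and 0.837 to 65.1 CPM (median 7.91) with vehicle (difference 1.44 (SE 0.71), adjusted p = 0.176), and 5 of the 6 powder libraries but 2 of the 6 vehicle libraries stood above 30 CPM, a bound chosen after the values were seen. Bmp7 differed by 0.89 (SE 0.39) (adjusted p = 0.121).

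At day 7 in colon powder gave 0 called genes of the 10, with 0% of all genes called, 462 of all genes but none of the 10 at an unadjusted p under 0.05. The log2 differences lay between -0.53 and 0.74. In jejunum powder gave 0 of 8 at each day, with 0.008% of all genes called. Id1 at day 7 was at 77.3 to 118 CPM (median 90.7) with powder and 52.0 to 86.1 CPM (median 61.9) with vehicle (difference 0.49 (SE 0.15), adjusted p = 1.00), 1 of the 8 with an unadjusted p under 0.05. Injection gave 0 of 10 in colon and 0 of 8 in jejunum at each day, with 0% of all genes called throughout and an unadjusted p under 0.05 for 0, 0, 2 and 0 of the genes (colon day 4 and day 7, jejunum day 4 and day 7). Over all genes that count was 475, 227, 1012 and 342. The intervals are wide: for Bmper in colon at day 4 the difference of injection from vehicle was 0.80 (SE 0.89) and for Bmp2 0.93 (SE 0.78). In DESeq2 0 of these genes were called in the powder and injection comparisons as well, where 2072 of 13045 were with powder in colon at day 4. With only the 2 groups of that comparison fitted, 1 of 9 tested was called, beside 958 of 12398 genes. The change of the powder or injection difference from day 4 to day 7 was called for none of the genes in either tissue, with 0% of all genes called. Oral vehicle against untreated irradiated rats also gave 0 called genes of the 10 and of the 8, with 0% and 0.00752% of all genes called in colon at day 4 and day 7, and 0% and 0.008% in jejunum. An unadjusted p under 0.05 was found for 0, 0, 2 and 0 of them in the same order.

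**Figure D3:**
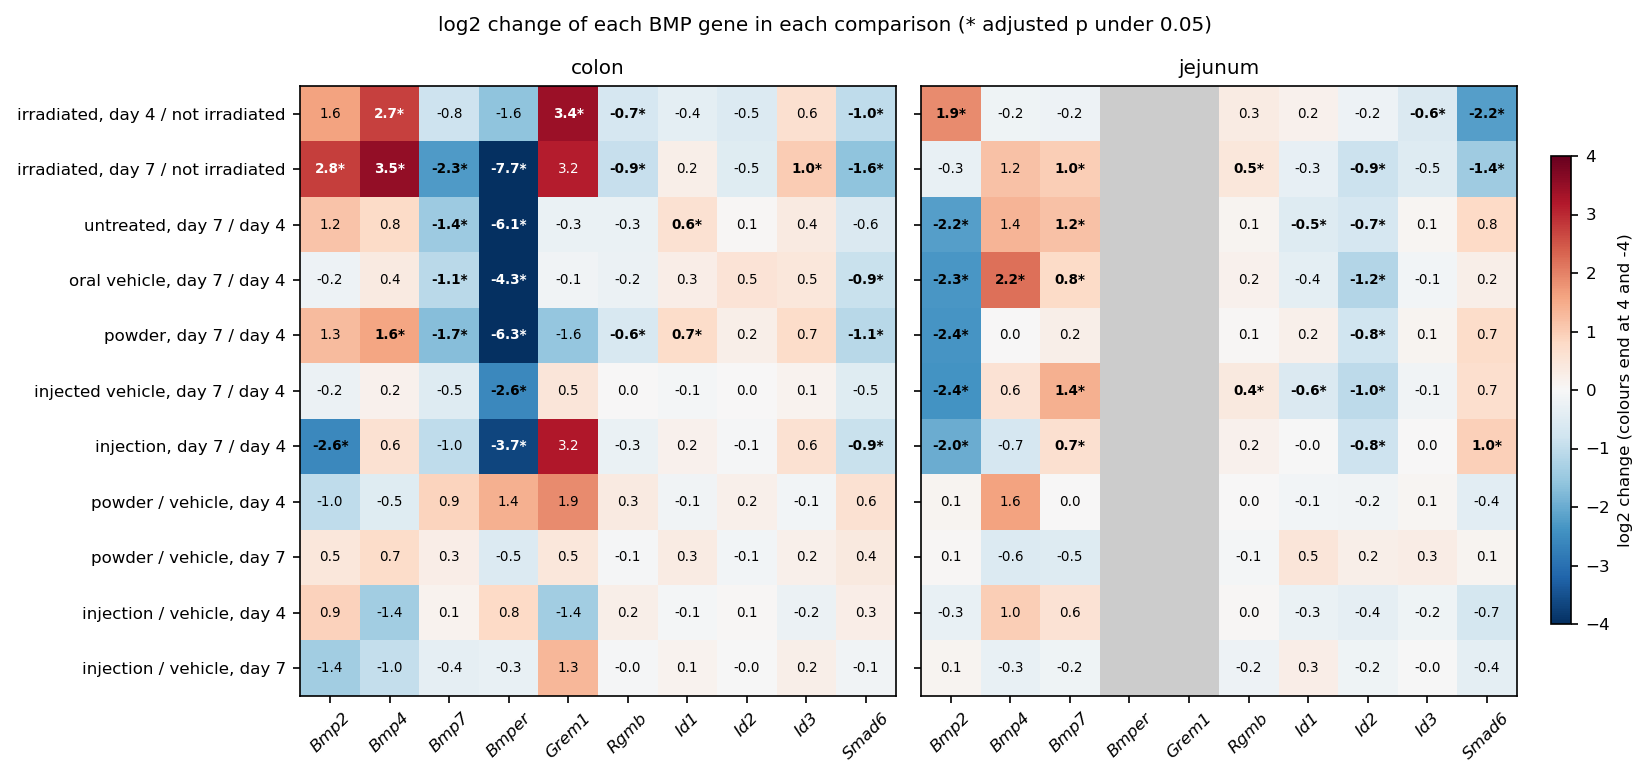
Log2 change of each gene (columns) in each comparison (rows) in colon (left) and jejunum (right), with an asterisk where the adjusted p is under 0.05; grey cells failed the low-count filter, and colours end at 4 and -4. The lower 4 rows, preparation against vehicle, hold no asterisk.

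Between libraries of the same group, pairs of the BMP genes were compared in irradiated colon at day 4. Bmper ran from 0.837 to 81.5 CPM over the 30 irradiated day 4 colon libraries (5 arms of 6). For these, log2(CPM + 0.5) was centred on each group's mean, and 85 relations were computed, 45 among the 10 genes and 40 with summed markers or the mitochondrial share. Permutation p-values came from 100000 permutations over all 30 libraries, regardless of group and series, and were adjusted over the 85. Series was not centred out. Differences between series 1 and 2 inside the untreated and oral groups thus enter r and its p. Of the 45 pairs 26 had an adjusted p under 0.05 for r, 12 of them positive and 14 negative, and 19 did not. The smallest absolute r of the 26 was 0.457, and 29.3% of all pairs among 11660 genes with a mean of at least 1 CPM in these libraries lay at or above it. The closest pairs are described. Bmper went up and down with Bmp7 (Pearson r = 0.88, Spearman rho = 0.87, each with permutation p = 1e-05, the smallest they can give, adjusted p = 5.00e-05 for r and 6.07e-05 for rho), and r was 0.85 without the 2 libraries farthest from the median of Bmper. Within series 1, 2 and 3 (9, 9 and 12 libraries) the r of Bmper with Bmp7 was 0.86, 0.95 and 0.79. Values within a series were not centred again, so offsets between groups remain in series 1 and 2, here and below. Bmper also rose with Smad6 (r = 0.78, rho = 0.81, each permutation p = 1e-05, adjusted 5.00e-05 for r; 0.76 without the farthest 2; 0.90, 0.73 and 0.67 within series). Against the targets it ran the other way, with Id1 (r = -0.76, rho = -0.74, each permutation p = 1e-05, adjusted 5.00e-05 for r; -0.76 without the farthest 2; -0.53, -0.77 and -0.81 within series) and Id3 (r = -0.81, rho = -0.78, each permutation p = 1e-05, adjusted 5.00e-05 for r; -0.80 without the farthest 2; -0.57, -0.83 and -0.79 within series). Libraries with less Bmper thus tended to hold more Id1 and Id3. Both sides also moved with the mitochondrial share and the cycling markers. The r with that share was -0.56 for Id1 (rho = -0.58, permutation p = 0.00119 and 0.00098, adjusted p = 0.00349 for r). It was -0.55 without the farthest 2, and -0.03, -0.74 and -0.59 within series. For Id3 it was -0.68 (rho = -0.59, permutation p = 6e-05 and 0.00085, adjusted p = 0.000268 for r). Without the farthest 2 it was -0.68, and within series -0.13, -0.70 and -0.80. The r of Bmper with the summed cycling markers was -0.52 (rho = -0.55, permutation p = 0.00401 and 0.0018, adjusted p = 0.00812 for r; -0.48 without the farthest 2; -0.52, -0.28 and -0.16 within series).

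**Figure D4:**
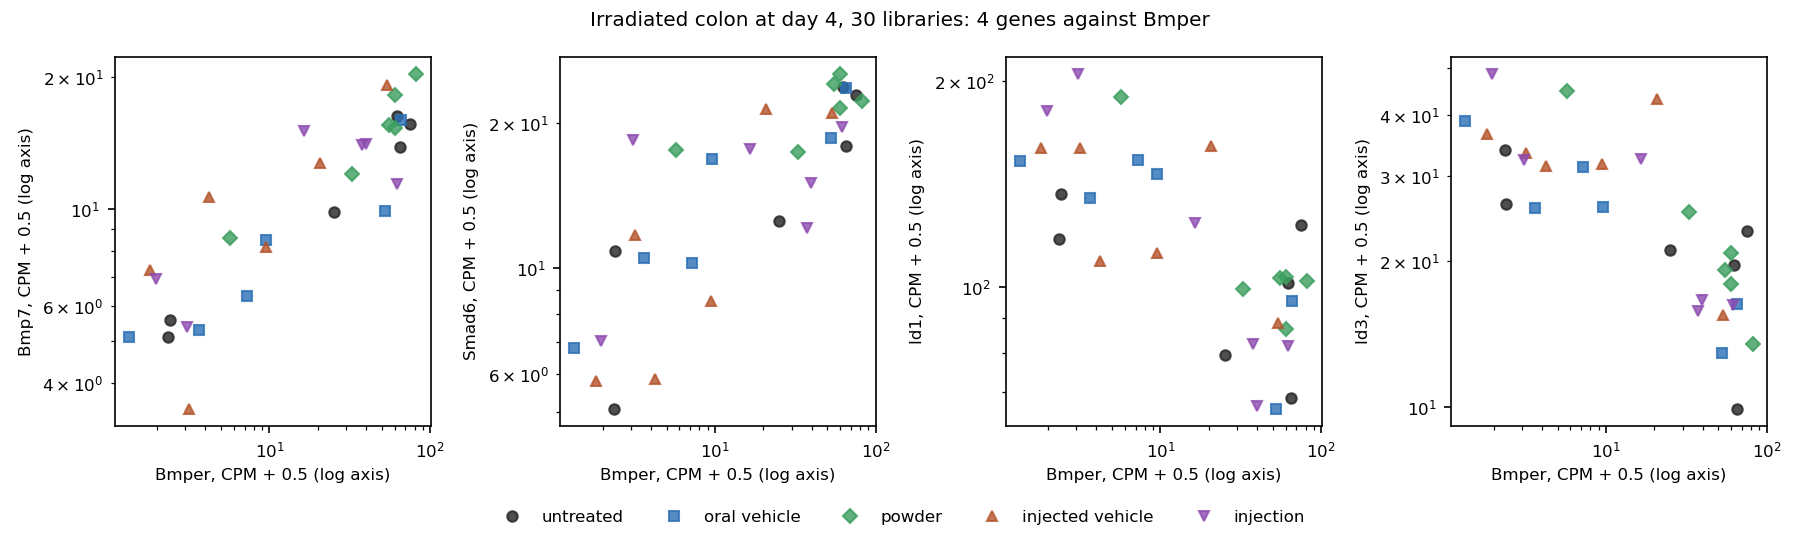
Bmp7, Smad6, Id1 and Id3 against Bmper in the 30 irradiated colon libraries of day 4, all as CPM + 0.5 on log axes; symbols give the arm. Bmp7 and Smad6 increase with Bmper, and Id1 and Id3 decrease.

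The 3 Id genes varied with each other, with r = 0.88 for Id1 and Id2, 0.86 for Id1 and Id3 and 0.73 for Id2 and Id3 (rho = 0.85, 0.87 and 0.75, each permutation p = 1e-05, adjusted 5.00e-05 for r). Without the 2 libraries farthest in the former gene of each pair these were 0.84, 0.87 and 0.72, and within series they lay between 0.58 and 0.93. Bmp2 varied with Id2 (r = 0.81, rho = 0.71) and Id1 (r = 0.75, rho = 0.76), each permutation p = 1e-05 and adjusted p = 5.00e-05 for r, with r = 0.68 and 0.64 without the farthest 2 and between 0.42 and 0.89 within series. Bmp4 and Grem1 varied together (r = 0.79, rho = 0.77, each permutation p = 1e-05, adjusted 5.00e-05 for r; 0.79 without the farthest 2; 0.70, 0.79 and 0.82 within series). Bmp4 ran against Smad6 (r = -0.80, rho = -0.69, permutation p = 1e-05 and 4e-05, adjusted p = 5.00e-05 for r; -0.75 without the farthest 2), but within series 1, 2 and 3 that r was -0.32, -0.62 and -0.97. Genes of a library share its depth and its composition.

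Both stromal-type genes followed the summed fibroblast markers, which ran from 13.4 to 238 CPM over the same 30 libraries. The r with that sum was 0.91 for Bmp4 (rho = 0.90; 0.90 without the farthest 2; 0.91, 0.91 and 0.95 within series) and 0.86 for Grem1 (rho = 0.84; 0.82 without the farthest 2; 0.74, 0.96 and 0.84 within series), each with permutation p = 1e-05 and adjusted p = 5.00e-05 for r. Grem1 ran from 0 to 8.94 CPM with a median of 0.385 CPM, under the 0.5 added before the log. Its r values thus depend in part on that constant and on the libraries with more Grem1. No r with the summed smooth muscle markers was computed over these libraries. The libraries highest in Grem1, at 8.94 and 5.87 CPM, held smooth muscle sums of 176 and 401 CPM. A library with a sum of 212 CPM held 1.00 CPM of Grem1. The r with the fibroblast sum thus does not set Grem1 apart from smooth muscle. Bmper did not follow the fibroblast sum (r = -0.19, rho = -0.19, permutation p = 0.306 and 0.303, adjusted p = 0.388 for r). Instead Bmper and Smad6 went with the summed colon markers, which ran from 269 to 12990 CPM. For Bmper r was 0.70 (rho = 0.65, permutation p = 1e-05 and 0.00014, adjusted p = 5.00e-05 for r; 0.70 without the farthest 2; 0.91, 0.56 and 0.67 within series). For Smad6 r was 0.91 (rho = 0.91, each permutation p = 1e-05, adjusted 5.00e-05 for r; 0.89 without the farthest 2; 0.91, 0.91 and 0.92 within series). Bmper also went with the mitochondrial share (r = 0.73, rho = 0.70, permutation p = 1e-05 and 6e-05, adjusted p = 5.00e-05 for r; 0.76 without the farthest 2), with 0.31, 0.70 and 0.80 within series. Id3 went with the summed cycling markers (r = 0.72, rho = 0.67, permutation p = 3e-05 and 7e-05, adjusted p = 0.000142 for r; 0.67 without the farthest 2; 0.85, 0.50 and 0.53 within series).

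**Figure D5:**
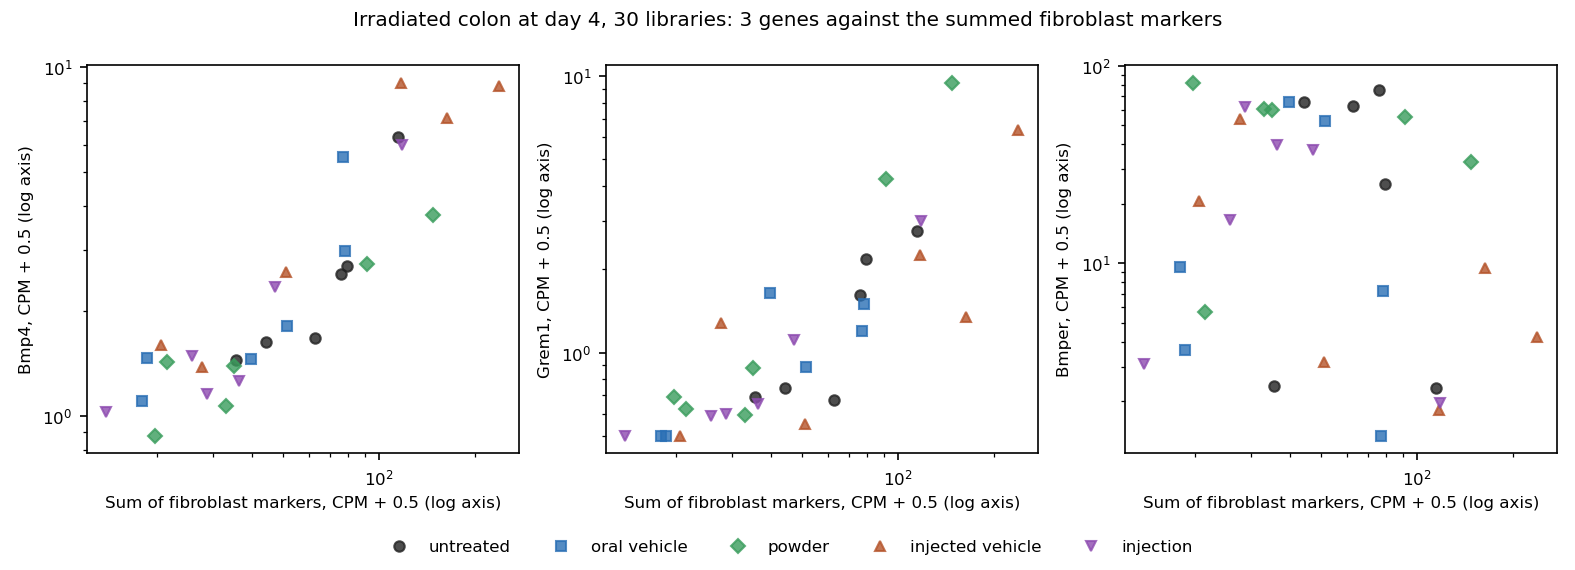
Bmp4, Grem1 and Bmper against the summed level of 9 fibroblast markers in the 30 irradiated colon libraries of day 4, all as CPM + 0.5 on log axes; symbols give the arm. Bmp4 and Grem1 increase with the marker sum from 13.4 to 238 CPM, and Bmper shows no such order.

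The wider pathway was read from 48 further genes, all 48 of them in the tables. In colon 31 passed the filter. At day 4, 10 rose and 5 fell, where 46.9% of all genes tested were called, and at day 7, 9 rose and 11 fell, where 63.6% were, with medians of 0.17 and -0.10 against 0.02 and 0.02 over all genes. These shares are near those of all genes and are no result about the pathway. The genes named are those called with the smallest p. Among other ligands Bmp8a rose at day 4, from 0.391 ± 0.0419 CPM (SD, n = 6) to 2.68 ± 0.597 CPM (log2 change 2.77, SE 0.53, adjusted p = 7.56e-05). The receptors Acvr1 (log2 change 0.58, SE 0.12, adjusted p = 0.000168) and Eng, an endothelial co-receptor (log2 change 2.99, SE 0.67, adjusted p = 0.000534), and Smurf1, a ubiquitin ligase that marks SMADs for breakdown (log2 change 0.91, SE 0.20, adjusted p = 0.000365), rose at day 4 as well. By day 7 the ligand Bmp3 had fallen from 71.2 ± 19.0 to 17.8 ± 5.79 CPM (log2 change -2.0, SE 0.27, adjusted p = 8.92e-08), and Bmp8b from 8.28 ± 2.61 to 1.66 ± 1.42 CPM (log2 change -2.40, SE 0.42, adjusted p = 6.46e-06). Smad5, which carries the BMP signal, fell too (log2 change -1.08, SE 0.17, adjusted p = 2.2e-06), as did Smurf2 (log2 change -0.47, SE 0.07, adjusted p = 1.86e-06). From day 4 to day 7 Bmp3 fell in all 5 colon arms, with log2 changes between -1.77 and -1.20.

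In jejunum 27 of the 48 passed. At day 4, 7 rose and 4 fell, where 44% of all genes tested were called, and at day 7, 4 rose and 9 fell, where 58.8% were, with medians of -0.07 and 0.00073 against 0.05 and 0.02 over all genes. Fst, which binds activins and BMPs, rose at day 4 from 0.0517 ± 0.0618 to 6.97 ± 7.75 CPM (SD, n = 6; log2 change 6.74, SE 1.5, adjusted p = 0.000548), with an SD as large as its mean. Chrd, the antagonist chordin, rose at day 4 from 26.5 ± 9.08 to 62.4 ± 24.7 CPM (log2 change 1.22, SE 0.27, adjusted p = 0.000620). Smad1, which carries the BMP signal, rose slightly (log2 change 0.50, SE 0.08, adjusted p = 1.66e-05), and the receptor Bmpr1a fell (log2 change -0.62, SE 0.17, adjusted p = 0.00386). At day 7 Bmp8b fell from 57.4 ± 9.91 to 9.94 ± 3.40 CPM (log2 change -2.54, SE 0.33, adjusted p = 1.99e-07), and the receptor Acvr1 (log2 change -1.14, SE 0.21, adjusted p = 3.27e-05), Bmp8a (log2 change -2.33, SE 0.57, adjusted p = 0.000844) and Smad7, an inhibitory SMAD like Smad6 (log2 change -1.79, SE 0.32, adjusted p = 1.89e-05), fell with it. Bmp8b and Bmp8a also fell from day 4 to day 7 in all 5 jejunum arms.

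With powder against vehicle 4 of the 31 tested were called in colon at day 4, where 11.8% of all genes were: Id4, a further Id gene, was higher (6.29 ± 2.55 against 2.77 ± 1.51 CPM; log2 change 1.21, SE 0.37, adjusted p = 0.0287), and Smurf1 (log2 change -0.72, SE 0.20, adjusted p = 0.0166), Acvr1 (log2 change -0.36, SE 0.12, adjusted p = 0.0418) and Smad4 (log2 change -0.28, SE 0.09, adjusted p = 0.0435) were lower. In the other powder comparisons and in all injection comparisons none of the 25 to 33 tested was called.

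The genes most like each member over all 66 colon libraries were found by Pearson correlation of log2 CPM among 11628 genes, as a description with no test, since irradiation and day set much of the order. Bmper was most like Aldh1a1 (r = 0.97), which makes retinoic acid, and Slc8a1 (0.96), a sodium and calcium exchanger. Bmp4 was most like Bmp5 (0.96) and Gja1 (0.95), a gap junction gene, and Grem1 was most like Bgn (0.88), a matrix proteoglycan, and Acta2 (0.87), the smooth muscle actin. Smad6 was most like Gnb5 (0.95) and Slc22a3 (0.95), and Bmp7 like Mapk8ip1 (0.91) and Stard8 (0.91). Id1 and Id2 had no close likeness, with 0.75 for Tle4 and 0.63 for Krt79. Over the 66 jejunum libraries Bmp2 was most like Tmem150b (0.96) and Riok3 (0.95) among 11171 genes, and Smad6 was most like Glipr2 (0.91) and Cdc42ep4 (0.91).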

How the data were processed

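RNA of colon and jejunum epithelium was sequenced in 132 libraries, and the authors deposited 2 tables of raw counts per gene, with 168 library columns in all; 36 libraries stand in both tables and were used once. Reads were aligned with STAR 2.7.10a to mRatBN7.2, per the submitters' processing notes; no counting tool or strand setting is named in those notes. From the deposited counts, the oral arms (42 libraries a tissue, with the library series as a term), the injected arms (24 a tissue) and both tissues together (84) were fitted with edgeR 4.0.16 (R 4.3.3): filterByExpr by group (minimum count 10, total 15), TMM factors, the quasi-likelihood F test and Benjamini-Hochberg adjusted p-values over all genes tested, called under 0.05. The SE is the absolute log2 change over the square root of F. Non-overlap and levels use CPM over all libraries.

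The edgeR script was tested on simulated data before use. Alternatives were DESeq2 1.42.0, RLE factors, no filter, the mitochondrial share as a covariate, the replicate number as a block, only the groups compared, each series alone, and, chosen after seeing the data, leaving out each library and a pair of day 7 libraries. Permutation tests used scipy 1.17.1. At total counts of 17196039 to 19800746 per library, alike in both tissues, Bmper and Grem1 were too low in jejunum to pass the low-count filter. Of the 48 other pathway genes up to 4 called genes with the smallest p and a mean of at least 1 CPM are named per comparison, and for likeness the 2 genes with the highest r. The members and lists were chosen with earlier results of these data known.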

Additional observations from a re-analysis of the deposited data

Results flagged for a closer look

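In 32 of 198 combinations of gene and group the highest of the 6 libraries stood apart from the other 5. The gap, as a share of the group's range, was above the 95% critical value of Dixon's test. For independent, normally distributed values about 1 in 20 would be flagged, or 9.9. The test was run on CPM without a log, which can be skewed to the high side, and genes of a library are not independent. The 32 flags thus cannot be weighed against 9.9, and they only list libraries for a closer look. All 32 were on the high side, 20 in colon and 12 in jejunum, and 9 of them were Bmp2. Bmper stood at 53.3 CPM in injected vehicle colon at day 4 (replicate 5). Rgmb stood at 20.0 CPM in oral vehicle jejunum at day 4 (replicate 3), 34.3 CPM in injected vehicle colon at day 4 (replicate 6) and 18.1 CPM in injected vehicle jejunum at day 4 (replicate 5). Bmp2 stood at 26.6 CPM in untreated colon at day 4 (replicate 4), 24.6 CPM in powder colon at day 4 (replicate 5), 81.8 CPM in powder colon at day 7 (replicate 6), 15.8 CPM in oral vehicle jejunum at day 7 (replicate 1), 12.6 CPM in powder jejunum at day 7 (replicate 6), 101 CPM in injection colon at day 4 (replicate 2), 34.2 CPM in injected vehicle colon at day 7 (replicate 4), 6.08 CPM in injection colon at day 7 (replicate 6) and 16.0 CPM in injected vehicle jejunum at day 7 (replicate 3). Bmp4 stood at 5.80 CPM in untreated colon at day 4 (replicate 6), 12.2 CPM in untreated colon at day 7 (replicate 2), 2.52 CPM in oral vehicle jejunum at day 7 (replicate 5) and 5.48 CPM in injection colon at day 4 (replicate 1). Bmp7 stood at 5.12 CPM in untreated jejunum at day 4 (replicate 1) and 8.73 CPM in oral vehicle jejunum at day 4 (replicate 3). Grem1 stood at 1.93 CPM in oral vehicle colon at day 7 (replicate 5), 5.87 CPM in injected vehicle colon at day 4 (replicate 2) and 2.48 CPM in injection colon at day 4 (replicate 1). Id1 stood at 189 CPM in powder colon at day 4 (replicate 5) and 186 CPM in injection colon at day 7 (replicate 6). Id2 stood at 54.1 CPM in untreated jejunum at day 4 (replicate 6) and 33.3 CPM in powder colon at day 4 (replicate 5). Id3 stood at 56.8 CPM in untreated colon at day 7 (replicate 2) and 97.6 CPM in powder jejunum at day 7 (replicate 3). Smad6 stood at 9.16 CPM in oral vehicle colon at day 7 (replicate 3), 19.1 CPM in powder colon at day 7 (replicate 6), 8.14 CPM in oral vehicle jejunum at day 7 (replicate 4) and 8.90 CPM in powder jejunum at day 7 (replicate 3).

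The powder colon library of day 4 named for Bmp2, Id1 and Id2 is the same library, replicate 5, and it held 5.19 CPM of Bmper, the lowest of its group. The effect of irradiation differed between the tissues by the interaction test, as jejunum minus colon, for Rgmb (1.04) and Id3 (-1.17) at day 4, and for Rgmb (1.47), Bmp2 (-2.99), Bmp7 (3.33) and Id3 (-1.43) at day 7, all as log2 differences with an edgeR adjusted p under 0.05.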

How the results depend on the processing

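Of 65 called results of single genes, 64 held with DESeq2, 64 with RLE factors and 58 without the filter; 33 held with the mitochondrial share as a covariate, where 30 were lost and 2 of the results reversed. Against non-irradiated colon 2 genes were called at day 4 and 1 at day 7 with that covariate, beside 2847 and 272 of 13306 tested. From day 4 to day 7 it was 0 in untreated, oral vehicle and powder colon, beside 575, 569 and 484 of 13306. In injected vehicle colon it was 0, beside 1154 of 13144, and with injection 1, beside 3547. In untreated jejunum 2 were called, beside 5560 of 12501, and with injection in jejunum 0, beside 759 of 12180. In all these colon fits fewer of all genes were called than without the covariate, and the cause was not tested. With only the groups compared 7 of 9 tested were called in colon at day 4, beside 6030 of 12334 genes. With powder against vehicle in colon at day 4 it was 1 of 9, beside 958 of 12398. In series 1 alone (fewer samples) 1 was called in colon at day 4, beside 2115 of 13323. From day 4 to day 7 in colon 6 were, beside 4070. In jejunum 1 was called at each day, beside 1880 and 3303 of 12514, and 0 from day 4 to day 7, beside 166. In series 2 alone 7 were called in colon at day 4, beside 5289 of 13417. Without the filter 0 were called with injected vehicle in colon, beside 3297 of 18492. With DESeq2 4 were called in the tissue interaction at day 4, beside 3184 of 13741.

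With the replicate block 54 of the 65 held and 11 were lost. From day 4 to day 7 that left 2 in oral vehicle jejunum, beside 2845 of 12501 genes. In injected vehicle colon it left 0 and in injection colon 1, beside 3004 and 4833 of 13144. Within tissues the replicate numbers do not pair the libraries (median r of same-numbered deviations between -0.11 and 0.01). Colon and jejunum libraries of 1 library number had a median r of 0.14 against -0.02 for other libraries of their group, 37 of 66 were over 0.1 and 25 of 66 matched best with their own number, which is a hint from the data and not from the labels. With that number as the block, the tissue contrasts had 7, 2 and 5 genes called, the same counts as without it. Of all 13741 genes 9706, 2626 and 5288 were called. At day 4 Id3 was lost and Smad6 gained (edgeR adjusted p = 0.0817 and 0.0498).

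Reversed log2 changes were, with the covariate, Bmper 0.17 (colon day 4) and 0.35 (injected vehicle colon), Id1 -0.43 and Id3 -0.12 (colon day 7) and Bmp4 0.27 (jejunum day 4). In series 1 alone they were Bmper 0.34 (colon day 4), Id2 0.055 (colon day 7) and Id3 0.080 and 0.48 (jejunum day 4 and day 7). In series 2 alone they were Grem1 -2.18 (colon day 7), Bmp4 4.93 and Id1 -0.0078 (jejunum day 4) and Bmp2 0.14 (jejunum day 7). Bmp4 was at 0 in the non-irradiated jejunum libraries of series 2 and Grem1 at 0 in 2 of its 3 day 7 colon libraries, so both values depend on the prior count and are no measured size. Grem1 was -2.70 without the pair of day 7 colon libraries. Bmp4 in jejunum at day 4, not called, lay between -0.55 and 0.61 when 1 library was left out, and was 0.61, 0.22 and 0.0078 without replicate 1 or 2 of non-irradiated or replicate 1 of day 4. Leaving out 1 library gave 0 to 1 genes called for powder against vehicle in colon at day 4, and, from day 4 to day 7, 1 to 4 with oral vehicle in colon, 2 to 4 with oral vehicle in jejunum, 0 to 1 with injected vehicle in colon and 1 to 5 with injection in colon. Depth limits Grem1 in jejunum, with 0 counts in non-irradiated libraries.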

Other observations

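Grem1 reached its highest jejunum level in 1 library. It was at 9.01 CPM in replicate 4 of injection at day 4, against at most 0.401 CPM in the other 65 jejunum libraries, 39 of which were at 0. In the same library the summed smooth muscle markers were at 406 CPM, against at most 36.8 CPM in the other jejunum libraries, and Bmper was at 0.0715 CPM. Bmper itself stayed at or under 0.267 CPM in all 66 jejunum libraries, 41 of them at 0. In colon the highest Grem1 levels, 11.5 and 13.7 CPM, were in replicates 2 and 3 of injection at day 7. The part of smooth muscle in these levels was not tested.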
